A study of Mus musculus with 10 samples.

Results

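The genes described here are 33 B cell identity and receptor signalling genes, chosen by name from the gene tables, which list 53656 genes each. All 33 were found in every table, and all 33 passed the filter on low counts that left 14214 genes for testing. They cover the signalling chains of the B cell antigen receptor, the kinases and adaptors behind it, coreceptors, inhibitory receptors, transcription factors and receptors of the TNF family. The cells they were read in are not B cells: the labels give them as SMARTA T cells, CD4 T cells with a transgenic receptor for the GP61 peptide of lymphocytic choriomeningitis virus.

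A B cell reads antigen through a surface immunoglobulin that has no signalling tail of its own. Cd79a and Cd79b carry that tail. Src family kinases such as Lyn and Blk phosphorylate it, Syk binds it, and the adaptor Blnk brings Btk and Plcg2 together to raise calcium, while Cd22, Cd72, Fcgr2b and Siglecg dampen the signal. Pax5 and Ebf1 establish and hold B cell identity, and the receptors for BAFF and for CD40 ligand supply survival and T cell help. In a lymph node these genes mark the follicles, and a T cell is known to transcribe few of them at a high level, although several are shared with myeloid and dendritic cells.

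TOX, the protein removed in this study, is a nuclear HMG-box protein known from T cell development and exhaustion. Naive SMARTA cells that were TOX wild type (WT, 4 libraries) or TOX knockout (KO, 6 libraries), marked by different congenic alleles of Ly5, went into B6 mice treated with cytoxan (cyclophosphamide) that bore B16-GP61 melanoma, and were sorted from the tumour-draining lymph node 11 days later. KO cells were sorted as CD4 positive, Ly5.1 positive, Ly5.2 negative and low for PD1, LAG3 and CD39. WT cells were sorted as CD4 positive, positive for both Ly5 alleles and high for PD1, LAG3 and CD39, so genotype, congenic marker and gate cannot be told apart. The labels name neither the animals behind the replicates nor the part of Tox that was removed, and p-values therefore speak only of spread among libraries, part of which may be technical. In bulk RNA, fewer cells of a type and less RNA per cell cannot be told apart.

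Libraries held 31939816 to 45481478 counts in WT and 36028980 to 55784453 in KO. Tox stood at 236 ± 88.0 CPM (counts per 1000000; SD, n = 4) in the WT libraries, against 31.0 ± 20.8 CPM (SD, n = 6) after knockout. WT replicate 1 stood apart from the other WT libraries, with 14365 genes detected against 19101 to 19775. Its library number in the labels, 2, lies among numbers 1 to 3, where it is the only WT library beside KO replicates 1 to 3. Immunoglobulin genes took 0.815% of its counts, against 7.37%, 7.66% and 16.7% in WT replicates 2, 3 and 4 and 0.0902% to 0.193% in KO. The 10 T cell genes checked summed to 11234 to 24569 CPM in WT, highest in WT replicate 1, and to 22709 to 36397 CPM in KO. Cd3e, Cd3d, Cd3g, Cd247, Trac, Trbc1 and Trbc2 were each highest in WT replicate 1 among the WT libraries. Lck was not, and Cd4 and Cd28 were lowest there. Cd4 read 425 CPM against 1337 to 1657 in the other WT libraries, and Cd28 78.0 against 210 to 355.

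Short stretches of 7 promoters are given before the values because they match patterns searched for factors that are themselves among the 33 genes. RefSeq windows of 300 bases, from 250 before to 50 after a transcription start (GRCm38.p6), were at hand for 27 of the 33 genes, 36 windows in all, and were searched on both strands. The motifs were TCCC and GGGA with any 2 bases between them for EBF1, the octamer ATGCAAAT bound by POU factors such as Pou2f2, GAGGAAGT and AGGAAGTG for ETS factors such as Spib, which overlap each other, and CTA and TAG with any 4 bases between them for MEF2 factors such as Mef2c. The MEF2 pattern is loose, as it leaves the 4 middle bases open. In the Bank1 match these are ACCC, so that line shows a loose match only. Each line prints 30 bases, 5′ to 3′ on the gene's strand, with the match in capitals.
Cd22, EBF1 motif, chr7:30879058-30879087, minus strand: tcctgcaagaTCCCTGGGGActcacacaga
Vpreb3, octamer, chr10:75948244-75948273, plus strand: tcagtgggctgATTTGCATgctctattgtg
Blnk, octamer, chr19:40994333-40994362, minus strand: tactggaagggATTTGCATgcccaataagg
Cd72, ETS motif, chr4:43454657-43454686, minus strand: gccaaagacctACTTCCTCttttatgactt
Cd79a, ETS motif, chr7:24897431-24897460, plus strand: cacggctgaacAGGAAGTGaggcggagttt
Tnfrsf13b, ETS motif, chr11:61126693-61126722, plus strand: ggggaaaacccAGGAAGTGtggcctaggcc
Bank1, MEF2 motif, chr3:136326092-136326121, minus strand: ccagcaaggcCTAACCCTAGccttgcggcc

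The matches began 49 bases before the start in Cd22 and Cd72, 45 in Vpreb3 and Bank1, 51 in Tnfrsf13b, 55 in Cd79a and 130 in Blnk. The Cd79a and Blnk stretches lie inside an exon of the annotation used for counting. Among all 32851 windows of this length, 0.904% held the EBF1 motif, 1.74% the octamer, 3.20% and 4.07% the ETS motifs and 3.69% the MEF2 motif. Among the 36 windows here, the numbers were 1 with the EBF1 motif, 2 with the octamer, 1 and 2 with the ETS motifs and 1 with the MEF2 motif. The MEF2 numbers are for the loose pattern. A match describes letters in a window, and no binding was measured.

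KO libraries held less RNA of most of these genes. By edgeR's quasi-likelihood test over all 14214 genes, 20 of the 33 fell in KO at an adjusted p under 0.05, none rose, and 13 did not pass. Across all genes tested 2.70% fell and 0.429% rose. The median log2 fold change, KO minus WT, was -4.86 over the 33 genes and -0.12 over all genes tested, and the 20 that passed ranged from -6.87 to -3.48. At an unadjusted p under 0.05, 30 were lower and 0 higher, against 10.8% lower and 7.15% higher of all genes tested. For 20 genes every WT library lay above every KO library, which 6.31% of all genes tested did, and 17 of those 20 also passed the test. WT replicates 2 to 4 alone lay above every KO library for 29 genes, as they did for 16.0% of all genes tested. The count that fell was 25 without WT replicate 1 (7.90% of all genes tested fell in that fit) and 12 without WT replicate 4 (0.977%). It was 29 by DESeq2 (7.03% of all genes), 29 by limma-voom with quality weights (19.5%) and 27 when libraries were scaled to the T cell genes (15.7%), but 17 by limma-voom without weights (4.78%) and 10 at an adjusted p under 0.01 (0.851%). Within library numbers 4 to 8, with 3 libraries in each group, 22 fell (7.18% of all genes did), and within numbers 1 to 3 the fit called 3 lower (0.524%), Cd79a, Fcgr2b and Fcmr. That last fit has 1 WT library, whose spread is assumed to equal that of the KO libraries. Of the 20, 12 passed in each of the 10 fits that left out 1 library.

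**Figure D1:**
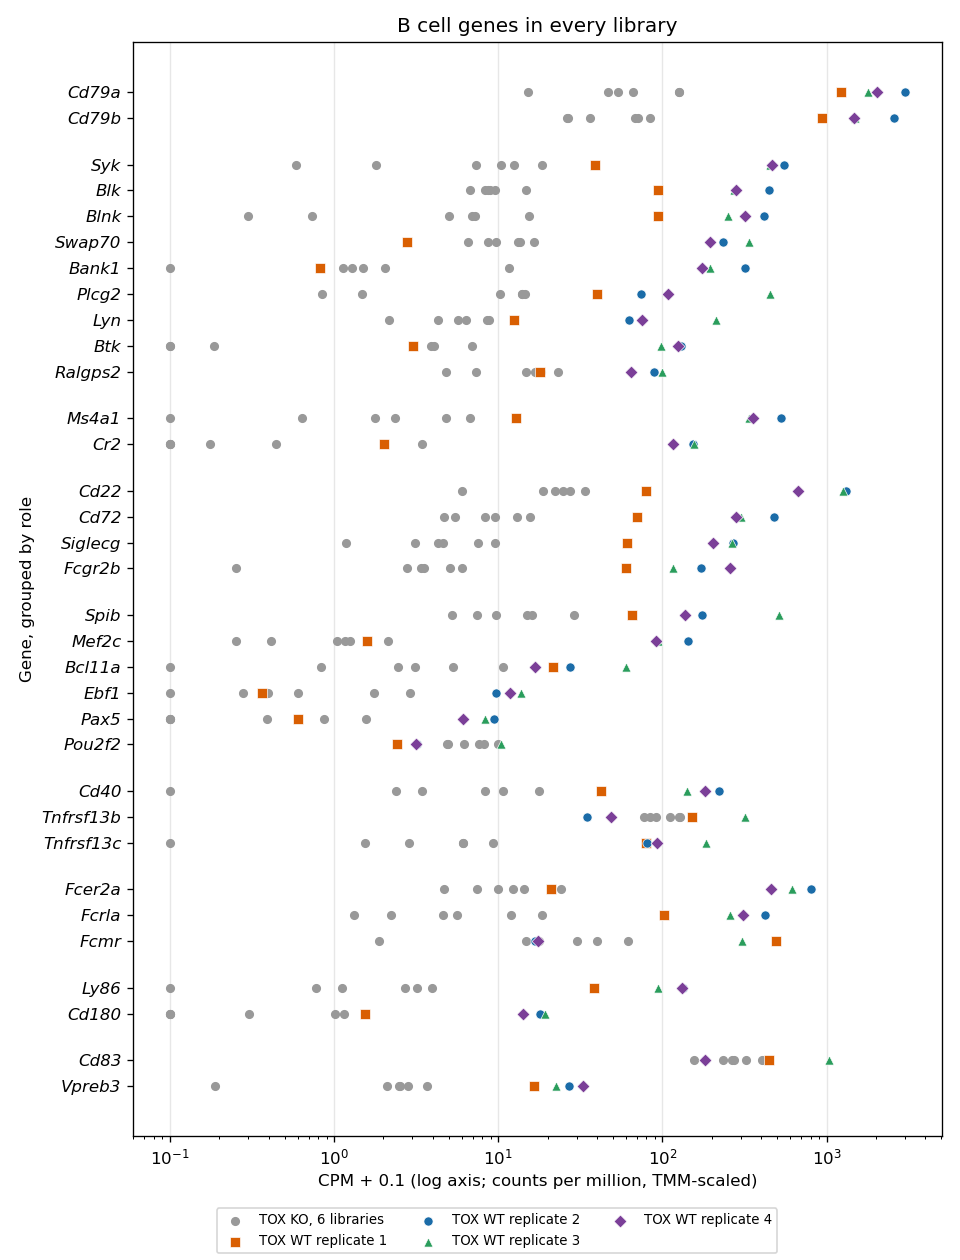
CPM of each of the 33 genes in every library, with 0.1 added, on a log axis. Grey points are the 6 KO libraries and coloured symbols the 4 WT libraries. WT replicate 1 (orange squares) is the lowest WT library for 29 genes, and WT replicates 2 to 4 all lie above every KO library for 29 genes (16.0% of all genes tested).

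Both signalling chains of the receptor fell, and they were the most abundant of the 33 in WT per length. Cd79a (chromosome 7, 24897381 to 24902197, plus strand, GRCm38.p6 as in all coordinates here) stood at 1221, 3017, 1793 and 2021 CPM in WT replicates 1 to 4, and at a lowest, median and highest of 15.1, 59.7 and 126 CPM in KO. Its log2 fold change was -4.80 ± 0.56 (SE; adjusted p = 0.0023 by edgeR). Every WT library was far above every KO library, and WT replicate 1 was the lowest of the WT. Cd79b (chromosome 11, 106311341 to 106314762, minus strand) stood at 940.3, 2573, 1498 and 1464 CPM in WT and 26.0, 52.0 and 84.0 CPM in KO. Its log2 fold change was -4.96 ± 0.46 (SE; adjusted p = 9.3e-04 by edgeR). The groups again did not overlap, and the 2 chains kept nearly the same ratio in WT: Cd79b per Cd79a, per length, was 0.784, 0.869, 0.850 and 0.738 there and 0.496 to 1.78 in KO. Per kilobase of exon, WT means were 1382 CPM for Cd79a and 1131 for Cd79b, followed by 179.5 for Cd83 and 164 for Cd22. In KO the highest means per kilobase were 108 for Cd83 and 49.5 for Cd79a.

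Of 9 kinases, adaptors and related signalling genes, 6 fell: Blk, Lyn, Syk, Blnk, Plcg2 and Swap70. Blk, a Src family kinase largely restricted to B cells, read 94.4, 447, 274 and 281 CPM in WT and 6.61, 8.70 and 14.8 CPM in KO (log2 fold change -4.86 ± 0.43 SE, adjusted p = 9.3e-04 by edgeR). Lyn, the Src family kinase that also serves the inhibitory receptors and is expressed in myeloid cells, read 12.3, 62.5, 212 and 74.8 CPM in WT and 2.05, 5.95 and 8.71 CPM in KO (log2 fold change -3.94 ± 0.69 SE, adjusted p = 0.014 by edgeR). For both kinases the groups did not overlap, but the highest WT library was replicate 2 for Blk and replicate 3 for Lyn.

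Syk, the kinase that docks on the phosphorylated chains, read 39.0, 549, 451 and 466 CPM in WT and 0.484, 8.75 and 18.5 CPM in KO (log2 fold change -5.48 ± 0.99 SE, adjusted p = 0.016 by edgeR). Blnk, the adaptor downstream of Syk, read 93.8, 418, 253 and 318 CPM in WT and 0.199, 5.89 and 15.4 CPM in KO (log2 fold change -5.53 ± 1.01 SE, adjusted p = 0.016 by edgeR). Neither gene's groups overlapped, and without WT replicate 4 the adjusted p rose to 0.053 for Syk and 0.054 for Blnk. Plcg2, the phospholipase that releases calcium, read 39.8, 74.1, 455 and 108 CPM in WT and 0.743, 12.1 and 14.5 CPM in KO (log2 fold change -4.21 ± 0.95 SE, adjusted p = 0.040 by edgeR). Its WT mean rests on replicate 3, which was several times above the other WT libraries, and 9 of the 10 fits without 1 library lost the call, with an adjusted p of up to 0.092; the exception was the fit without WT replicate 1.

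Swap70, a Rac-binding protein of B cells, read 2.68, 233, 337 and 195 CPM in WT and 6.49, 11.4 and 16.3 CPM in KO. All 6 KO libraries were above WT replicate 1, so its call (log2 fold change -4.09 ± 0.85 SE, adjusted p = 0.028 by edgeR) rests on WT replicates 2 to 4, and 8 of the 10 fits without 1 library lost it. Btk, the kinase lost in X-linked agammaglobulinaemia, read 2.92, 130.05, 98.7 and 124 CPM in WT and 0, 1.95 and 6.81 CPM in KO and did not pass (log2 fold change -5.18 ± 1.68 SE, adjusted p = 0.14 by edgeR). Bank1, a scaffold of B cells, read 0.725, 320.3, 195 and 174 CPM in WT and 0, 1.29 and 11.5 CPM in KO (log2 fold change -5.92 ± 1.58 SE, adjusted p = 0.077 by edgeR). For both, WT replicate 1 lay within the KO range and the other WT libraries lay far above it. Ralgps2, an exchange factor for Ral, read 18.0, 89.3, 100.045 and 64.3 CPM in WT and 4.71, 15.7 and 23.2 CPM in KO (log2 fold change -2.26 ± 0.55 SE, adjusted p = 0.055 by edgeR), with the same overlap at WT replicate 1.

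The coreceptor group holds Ms4a1, which encodes CD20, and Cr2, the complement receptor CD21. Ms4a1 (chromosome 19, 11249675 to 11266241, minus strand) read 12.8, 527, 338 and 356 CPM in WT and 0, 1.96 and 6.61 CPM in KO. It fell by 6.87 on the log2 scale (SE 1.37; adjusted p = 0.024 by edgeR) without overlap, and 6 of the 10 fits without 1 library lost the call, with an adjusted p of up to 0.069. Cr2 (chromosome 1, 195136811 to 195176716, minus strand), which follicular dendritic cells share, read 1.91, 154, 156 and 116 CPM in WT and 0, 0.0381 and 3.33 CPM in KO. Its log2 fold change was -7.41 ± 1.95 (SE; adjusted p = 0.075 by edgeR), and KO replicate 2 lay above WT replicate 1.

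All 4 inhibitory receptors fell without overlap, and all 4 passed in every fit that left out 1 library. Cd22 (chromosome 7, 30865402 to 30880342, minus strand), the sialic acid binding lectin that recruits phosphatases to the receptor, read 79.8, 1311, 1252 and 674 CPM in WT and 5.93, 23.4 and 33.6 CPM in KO (log2 fold change -5.23 ± 0.71 SE, adjusted p = 0.0043 by edgeR). Siglecg, a second lectin of this kind, read 60.6, 270.4, 267 and 203 CPM in WT and 1.08, 4.35 and 9.51 CPM in KO (log2 fold change -5.33 ± 0.64 SE, adjusted p = 0.0023 by edgeR). Fcgr2b, the inhibitory receptor for IgG, read 59.7, 171, 116 and 258 CPM in WT and 0.154, 3.35 and 5.88 CPM in KO (log2 fold change -5.47 ± 0.79 SE, adjusted p = 0.0054 by edgeR). Fcgr2b was highest in WT replicate 4 and the 2 lectins in WT replicate 2, and all were lowest in WT replicate 1. Cd72 read 70.2, 479, 303 and 282 CPM in WT and 4.61, 8.83 and 15.6 CPM in KO (log2 fold change -4.92 ± 0.55 SE, adjusted p = 0.0023 by edgeR). Of its exon bases 41.6% overlap Tesk1 on the opposite strand. No strand was used in counting, so reads of the pair cannot be told apart there. Tesk1 itself averaged 8.27 CPM in WT.

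Of the 6 transcription factors, Spib and Mef2c fell and 4 did not pass. Spib, an ETS factor of B cells and plasmacytoid dendritic cells, read 65.3, 174, 515 and 137 CPM in WT and 5.13, 12.2 and 28.7 CPM in KO (log2 fold change -4.04 ± 0.64 SE, adjusted p = 0.0090 by edgeR). Mef2c, a factor that B cells need to proliferate after receptor signals, read 1.498, 143, 94.4 and 91.2 CPM in WT and 0.152, 1.00 and 2.03 CPM in KO (log2 fold change -6.45 ± 1.08 SE, adjusted p = 0.011 by edgeR). The groups were separate for Spib, whereas for Mef2c WT replicate 1 lay inside the KO range. Pax5 and Ebf1, the factors of B cell commitment, were low everywhere. Pax5 read 0.507, 9.33, 8.20 and 5.97 CPM in WT and 0, 0.147 and 1.47 CPM in KO (log2 fold change -3.83 ± 1.64 SE, adjusted p = 0.26 by edgeR). Ebf1 read 0.266, 9.58, 13.8 and 11.8 CPM in WT and 0, 0.402 and 2.80 CPM in KO (log2 fold change -3.29 ± 1.32 SE, adjusted p = 0.23 by edgeR). In both, WT replicates 2 to 4 were above every KO library and WT replicate 1 was not.

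Bcl11a, a zinc finger factor of early lymphoid cells, read 21.3, 27.3, 59.9 and 16.6 CPM in WT and 0, 2.70 and 10.6 CPM in KO (log2 fold change -3.10 ± 1.15 SE, adjusted p = 0.19 by edgeR). The groups did not overlap although the test was not passed, and WT replicate 4 was the lowest WT library. Pou2f2, which encodes OCT2, was the only gene of the 33 with a positive estimate. It read 2.32, 3.08, 10.2 and 3.04 CPM in WT and 4.80, 6.81 and 9.84 CPM in KO (log2 fold change 0.55 ± 0.56 SE, adjusted p = 0.64 by edgeR). All 6 KO libraries lay above WT replicates 1, 2 and 4 and below WT replicate 3, and scaling to the T cell genes turned the estimate to -0.47.

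Of the 3 receptors of the TNF family, Tnfrsf13c fell and the others did not pass. Tnfrsf13c, the BAFF receptor, read 79.3, 80.6, 185 and 92.5 CPM in WT and 0, 4.37 and 9.24 CPM in KO (log2 fold change -4.69 ± 1.09 SE, adjusted p = 0.046 by edgeR). Cd40 read 42.0, 221, 141 and 183 CPM in WT and 0, 5.79 and 17.5 CPM in KO (log2 fold change -4.39 ± 1.17 SE, adjusted p = 0.077 by edgeR). Neither gene's groups overlapped, and Tnfrsf13c no longer passed in 8 of 10 fits that each left out 1 library, with an adjusted p of up to 0.11. Tnfrsf13b, which encodes the BAFF and APRIL receptor TACI, read 152, 34.6, 320.0 and 48.4 CPM in WT and 77.4, 101 and 128 CPM in KO (log2 fold change -0.43 ± 0.54 SE, adjusted p = 0.72 by edgeR). Its WT libraries lay on both sides of the KO range, replicates 1 and 3 above and 2 and 4 below, and without WT replicate 3 the estimate was 0.41.

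The Fc receptor relatives Fcer2a, which encodes CD23, and Fcrla fell, with log2 fold changes of -5.30 ± 0.82 (SE; adjusted p = 0.0076 by edgeR) and -5.23 ± 0.77 (SE; adjusted p = 0.0060 by edgeR). Fcrla was separate between the groups, and 1 KO library exceeded WT replicate 1 for Fcer2a. Fcmr, the receptor for IgM, read 489, 16.7, 307 and 17.4 CPM in WT and 1.78, 23.8 and 61.8 CPM in KO (log2 fold change -2.91 ± 1.05 SE, adjusted p = 0.18 by edgeR). WT replicates 1 and 3 were above all KO libraries, and WT replicates 2 and 4 lay within the KO range. Ly86, which encodes the MD-1 partner of CD180, fell by 5.72 on the log2 scale (SE 1.09; adjusted p = 0.019 by edgeR), a call lost without KO replicate 1, WT replicate 2 or WT replicate 4. Cd180, a Toll-like receptor relative, read 1.45, 17.8, 19.1 and 14.0 CPM in WT and 0, 0.102 and 1.05 CPM in KO (log2 fold change -5.17 ± 1.6005 SE, adjusted p = 0.12 by edgeR). Its groups did not overlap.

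Vpreb3, a chaperone of immunoglobulin assembly, fell with a log2 fold change of -3.48 ± 0.73 (SE; adjusted p = 0.030 by edgeR), the smallest among the 20. It ranged from 16.5 to 32.8 CPM in WT and from 0.0880 to 3.59 CPM in KO, and 7 of the 10 fits without 1 library lost the call. Cd83, a surface protein of activated B cells and dendritic cells that activated T cells also express, read 444, 182, 1039 and 182 CPM in WT and 157, 269 and 406 CPM in KO (log2 fold change -0.74 ± 0.49 SE, adjusted p = 0.46 by edgeR). The KO range enclosed WT replicates 2 and 4, while replicates 1 and 3 were above it, and without WT replicate 3 the estimate was 0.045. Cd83 and Tnfrsf13b together made up 42.8% to 76.8% of the KO counts on the 33 genes and 1.65% to 14.1% of the WT counts.

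**Figure D2:**
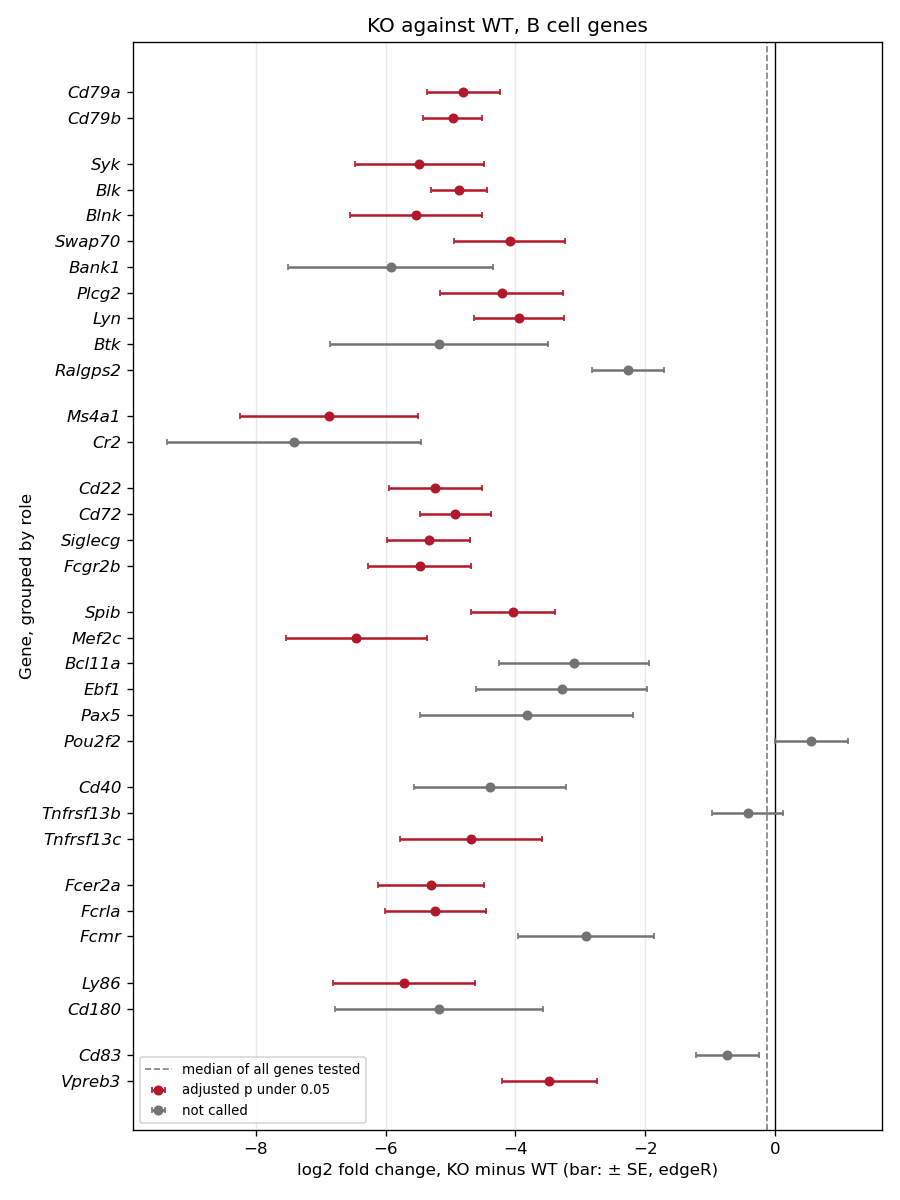
Log2 fold change, KO minus WT, of the 33 genes with SE as bars, from edgeR's quasi-likelihood fit. The 20 genes that passed lie between -6.87 and -3.48, and Pou2f2 is to the right of 0 at 0.55.

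The WT libraries also differed among themselves. The 33 genes summed to 4227, 13132, 11802 and 8919 CPM in WT replicates 1 to 4 and to 507 to 847 CPM in KO. WT replicate 1 was the lowest WT library for 29 of the 33, against 47.6% of all genes tested. The exceptions were Fcmr, Tnfrsf13b and Cd83, lowest in WT replicate 2, and Bcl11a, lowest in WT replicate 4. The highest library was WT replicate 2 for 17 genes (22.4% of all genes tested), WT replicate 3 for 13 (23.4%), WT replicate 4 for Vpreb3 and Fcgr2b, and WT replicate 1 for Fcmr. The most common orders were replicates 2, 4, 3, 1 from high to low in 9, and 2, 3, 4, 1 in 8.

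The shortfall of WT replicate 1 was uneven across the genes. Against WT replicate 2, it was 2.47-fold for Cd79a and 2.74-fold for Cd79b, but 41.1-fold for Ms4a1, 38.5-fold for Fcer2a, 44.5-fold for Btk, 80.7-fold for Cr2, 86.8-fold for Swap70, 95.4-fold for Mef2c and 442-fold for Bank1. Set against Cd79a within the same library, Ms4a1 gave 1.05, 17.5, 18.9 and 17.6 counts per 100 Cd79a counts in WT replicates 1 to 4. Cd22 gave 6.53, 43.5, 69.8 and 33.4 on that scale, and Vpreb3 gave 1.35, 0.888, 1.25 and 1.62. The ratio in WT replicate 1 was thus far below the other WT libraries for Ms4a1 and Cd22, and within their range for Vpreb3.

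**Figure D3:**
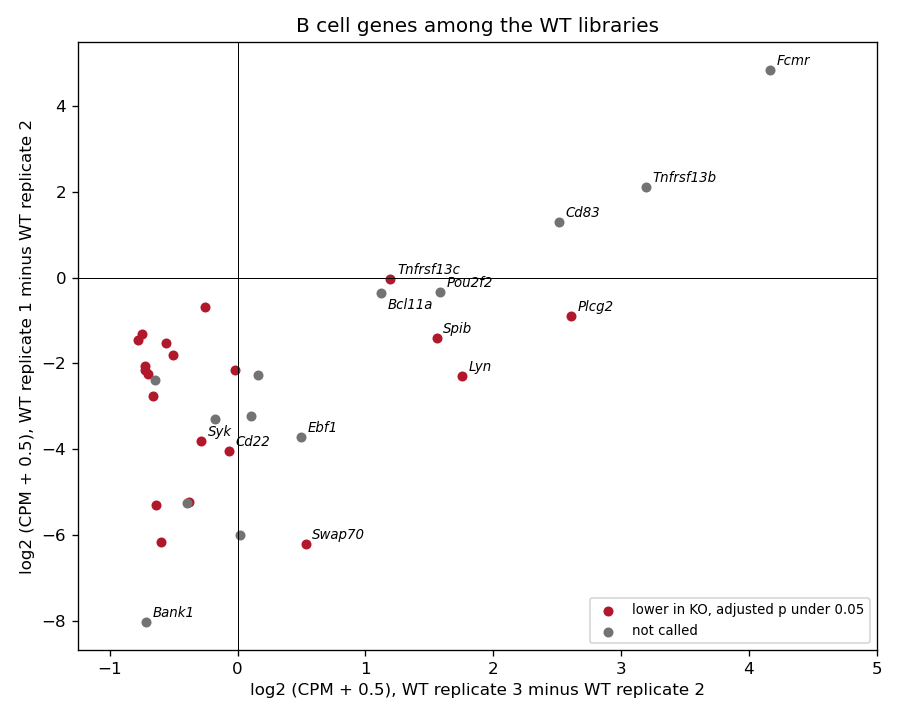
Differences between WT libraries for each of the 33 genes, as log2 of CPM plus 0.5: WT replicate 3 minus WT replicate 2 on the horizontal axis and WT replicate 1 minus WT replicate 2 on the vertical axis. Red points passed the KO against WT test. Fcmr, Tnfrsf13b and Cd83 stand alone above 0 on both axes, and Bank1 is lowest at -8.03.

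Genes with longer exons and lower GC content were further down in WT replicate 1 relative to WT replicate 2. Across the 33 genes, the log2 difference between WT replicates 1 and 2 had a Spearman correlation of -0.52 with exon length and 0.45 with the GC content of the coding transcript. Over the 10860 genes tested that had a GC value, the same correlations were -0.32 and 0.31. For WT replicate 3 minus WT replicate 2, the correlation with GC content was 0.033 across the 33 genes. Over the 10860 genes it was 0.28, close to the value for WT replicate 1. Each correlation comes from 1 pair of libraries, and both pairs hold WT replicate 2, so the values only describe those pairs. In groups formed after the values were seen, the 13 genes within 2 log2 units of WT replicate 2 or above it had a median exon length of 2836 bases, and the 8 genes more than 4 log2 units below had 6836.5 bases. The part of length and GC content in the result was not tested.

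**Figure D4:**
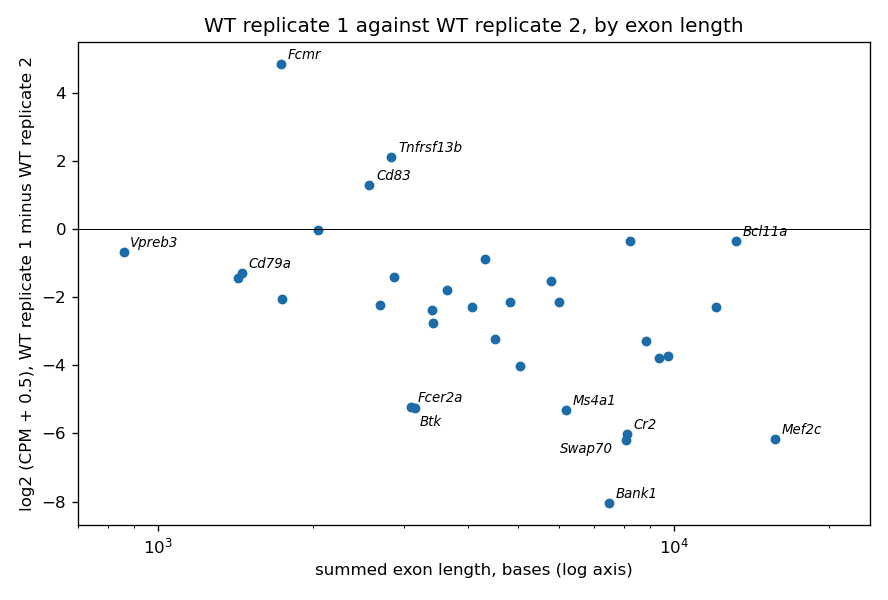
Log2 difference in CPM plus 0.5 between WT replicate 1 and WT replicate 2 against summed exon length (log axis) for the 33 genes. Vpreb3 and Cd79a, among the shortest, lie at -0.68 and -1.30, and Mef2c, the longest, at -6.16. Other genes depart from that order: Bcl11a, the next longest, lies at -0.35, and the shorter Fcer2a and Btk at -5.24 and -5.25.

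WT replicate 3 had its own set of high genes. It exceeded WT replicate 2 by 18.5-fold for Fcmr, 9.26-fold for Tnfrsf13b, 6.14-fold for Plcg2, 5.72-fold for Cd83, 3.39-fold for Lyn, 3.33-fold for Pou2f2 and 2.95-fold for Spib. For Cd79a and Cd79b it stood at 0.594 and 0.582 of WT replicate 2. Among KO libraries, replicate 5 was lowest for 15 genes (19.2% of all genes tested) and listed 7 of the 33 at 0 counts, against 2 or 3 in each other KO library. Ties went to the replicate with the lowest title number, in the percentage too. KO replicate 5 also tied at 0 for Pax5, Cr2 and Cd180, which are not among the 15. KO replicate 3 was highest for 9 genes (19.1%) and KO replicate 6 for 8 (13.0%), and 11 of the 33 were at 0 counts in at least 1 KO library.

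A list of 30 other genes of the receptor pathway leaves out the 33. Of these 30, all tested, 2 fell and 0 rose, with a median log2 fold change of -0.04. One was Fgr, a Src family kinase of myeloid and B cells, which averaged 159 ± 74.3 CPM in WT libraries (SD, n = 4) and 32.7 ± 4.37 CPM in KO libraries (SD, n = 6) (log2 fold change -2.28 ± 0.31 SE, adjusted p = 0.0046 by edgeR). Many on that list, such as the exchange factor Vav1, also serve the T cell receptor. A list of 18 B cell identity genes, also outside the 33, shares a gene with the list of 30, and that gene fell. Of these 18 genes, 5 fell and 0 rose, with a median of -1.602. Among them were Pou2af1, the coactivator of OCT factors (-3.19 ± 0.40 SE, adjusted p = 0.0030 by edgeR), Cd24a (-4.85 ± 0.58 SE, adjusted p = 0.0023 by edgeR), the Fc receptor homologue Fcrl1 (-3.67 ± 0.58 SE, adjusted p = 0.0089 by edgeR) and Icosl, the ligand of ICOS (-3.45 ± 0.44 SE, adjusted p = 0.0031 by edgeR).

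Some markers of plasma cells and most of those of myeloid cells had lower estimates in KO, and their part in the result was not tested. Of 7 plasma cell genes tested, Jchain (-9.06, adjusted p = 0.036 by edgeR) and Mzb1 (-6.39, adjusted p = 0.0053 by edgeR) fell. Sdc1, Prdm1 and Derl3 had negative estimates and were not called. Xbp1 (0.69) and Irf4 (0.013) were not called either. They averaged 222 and 137 CPM in WT, and 358 and 138 CPM in KO. The list of 8 summed to 823 to 5982 CPM in WT. In KO it summed to 236 to 873 CPM, most of it Xbp1 and Irf4. Jchain no longer passed in 7 of 10 fits that each left out 1 library. Tnfrsf17, which encodes BCMA and was too low to be tested, was at 0 in all KO libraries. It read 0, 3.00, 3.03 and 13.9 CPM in WT replicates 1 to 4. The 6 germinal centre genes tested gave no call, with 3 at an unadjusted p under 0.05. Of 5 genes checked for B cell precursors, Rag1 and Rag2 were at 0 in all 10 libraries. Vpreb1 averaged 2.19 CPM in WT and 2.08 CPM in KO, and Dntt 1.92 and 0.575 CPM, and neither was called. Igll1 averaged 0.225 CPM in WT and was at 0 in KO. Of 14 myeloid and dendritic genes tested, Lyz2, Cd68 and C1qa fell, and 11 had an unadjusted p under 0.05 by edgeR. The median log2 fold change of the 14 was -5.42. The list of 15 summed to 1793, 2573, 2308 and 7413 CPM in WT and 144 to 373 CPM in KO. C1qa no longer passed in 6 of 10 fits that each left out 1 library. Clec9a, which was too low to be tested, was at 0 in all KO libraries and at 0 to 0.799 CPM in WT. The myeloid sum, like the plasma cell sum, was highest in WT replicate 4, where only Vpreb3 and Fcgr2b of the 33 genes peaked.

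Among the 33, 16 are known from myeloid or dendritic cells as well, and 10 of them fell (median log2 fold change -5.05). Of the 17 others 10 fell (median -4.80). Of 4 follicular dendritic cell genes tested, 1 of which is Cr2, Clu fell, and it no longer passed in 8 of 10 fits that each left out 1 library. The 5 natural killer cell genes gave 1 rise, Klrb1c (2.81, adjusted p = 0.012 by edgeR). Their summed levels were 14.9 to 83.0 CPM in WT and 168 to 274 CPM in KO. Klrb1c averaged 224 CPM in KO and made up nearly all of that sum. The other 4 were not called and had negative estimates: Ncr1 (-3.16), Eomes (-3.77), Klre1 (-4.24) and Klrk1 (-6.56). Melanoma, stromal, erythroid, CD4 and CD8 T cell lists gave no call by edgeR, with 0, 0, 2, 4 and 0 genes in turn at an unadjusted p under 0.05. Their median log2 fold changes were -0.23, 1.33, 3.20, 0.69 and -1.32 in the same order. Only 1 of 6 melanoma genes, Pmel, and 2 of 5 stromal genes were tested. Pmel averaged 4.01 CPM in WT and 3.43 CPM in KO. Tyrp1, Dct and Mlana averaged 0.397 CPM or less in each group, and Tyr and Sox10 were at 0 in all 10 libraries.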

How the data were processed

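RNA of sorted cells was amplified with a SMART-seq V4 kit (12 cycles), made into libraries with 8 PCR cycles and sequenced paired end at 50 bp, per the labels' protocols. The deposited values are raw counts of read pairs per gene, which the authors made with featureCounts 1.6.2 on GENCODE M17 (GRCm38.p6), with no strand or multimapping option set, per the file headers. The submitters' processing notes also name FastQC and STAR, without versions.

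From these counts, genes were kept by edgeR's filterByExpr, scaled with TMM factors, and compared with the quasi-likelihood test of edgeR 4.0.16 (R 4.3.3; two-sided, genotype as the only term). P-values were adjusted by Benjamini-Hochberg over all 14214 genes tested, with a threshold of 0.05. CPM uses the TMM-scaled library sizes, SE was taken as the log2 fold change divided by the root of F, and log2 differences between libraries add 0.5 CPM. Libraries of 1 group, compared pairwise by chi-square, all differed beyond sampling noise.

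The 33 genes and the other lists were chosen with earlier results of these data known. All 33 are accounted for. Values of each WT library, with the lowest, median and highest KO value, are given for the receptor chains, core kinases, coreceptors, inhibitory receptors, transcription factors and TNF family receptors, and for genes that failed the test or were not lowest in WT replicate 1. Called genes of other lists are named. Some are not reported here.

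Alternatives were other scalings and filters, DESeq2 1.42.0, limma-voom (limma 3.58.1), blocks by number, the library sets apart, and leaving out each library. Data were also simulated for this comparison (14214 genes). Of true changes, 0% of 2-fold, 14% of 4-fold, 52% of 8-fold and 70% of 16-fold were called, and 0% of the calls were false. The changed genes were drawn from those with a mean of at least 8 CPM. Counts were drawn independently, with no library set and no library set apart as WT replicate 1 is. The percentages describe that setting only.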

Additional observations from a re-analysis of the deposited data

Results flagged for a closer look

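In 6 of 66 sets of libraries (each gene in WT and in KO), the end library lay further from the others than Dixon's test allows at the 95% level. For independent, normally distributed values that happens in about 1 set in 20. The CPM were not transformed and cannot go below 0, and the sets share the same libraries, so that rate need not hold here. Of the 6 sets, 3 were high values of WT replicate 3. Plcg2 stood at 455 CPM there while the remaining WT libraries held 39.8 to 108 CPM, Tnfrsf13c at 185 against 79.3 to 92.5 CPM, and Pou2f2 at 10.2 against 2.32 to 3.08 CPM. The KO libraries gave the other 3, in different replicates. Blk stood at 14.8 CPM in KO replicate 3 against 6.61 to 9.49 CPM, Cr2 at 3.33 CPM in KO replicate 2 against 0 to 0.340 CPM, and Bank1 at 11.5 CPM in KO replicate 6 against 0 to 1.96 CPM.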

How the results depend on the processing

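Against 20 of the 33 genes that fell in the fit reported, 10 fell at an adjusted p under 0.01 (0.851% of all genes tested), 0 with a replicate block by title numbers, 0 with a replicate block by library numbers (0 of all genes fell with either block), and 3 in library numbers 1 to 3 alone, where the lone WT library is assumed to vary like the KO libraries. The block by title numbers used replicates 1 to 4, which left out KO replicates 5 and 6. In the block by library numbers, only numbers 2 and 6 held both a WT and a KO library. That fit had almost no libraries left to estimate spread, so its 0 was nearly fixed in advance and decides nothing. Leaving out each library in turn gave 12 (without WT replicate 4) to 25 (without WT replicate 1). The other settings gave 16 to 29, with 29 by DESeq2, 29 by limma-voom with quality weights and 27 when scaled to the T cell genes, which moved the median of all genes to -0.94. No gene of the 33 rose in any setting. The counts of genes without overlap and of genes lowest in WT replicate 1 stayed within 1.5 times under the settings tried for them. Of the 30 other pathway genes, 2 fell as reported, 8 when scaled to the T cell genes, 6 by DESeq2, 10 by limma-voom with quality weights, 0 with either replicate block, 5 in library numbers 4 to 8 alone, 0 in library numbers 1 to 3 alone, and 2 to 5 without 1 library (5 without WT replicate 1).

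The sign turned in library numbers 1 to 3 alone for Ebf1 (1.32), Bank1 (0.50) and Swap70 (2.01), and for Pou2f2 when scaled to the T cell genes (-0.47). It turned for Tnfrsf13b by limma-voom (0.0705), with quality weights (0.97), with the replicate block by title (0.15) and without WT replicate 3 (0.41; fits without 1 library gave -0.70 to 0.41), and for Cd83 with quality weights (0.36) and without WT replicate 3 (0.045; fits without 1 library gave -0.952 to 0.045). The cause was not tested. Libraries with the same title number deviated together with r of 0.29, -0.25, -0.22 and 0.30, and those with the same library number with 0.32 and 0.13. No label ties a number to a shared animal, so the numbers were not taken as pairs. Pax5, Btk, Cr2 and Cd180 had under 4 KO libraries above the filter's level of 0.241 CPM.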
